A study of Rattus norvegicus with 40 samples.

Results

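Apoptosis regulators and caspases were followed as 37 named genes in rat cerebral cortex: 25 that promote cell death, 8 that restrain it and 4 of mixed role. The genes were listed by name, and each was represented by the probe set with the highest mean among those annotated to it alone. Of the 37, 35 had such a probe set, out of 14217 genes that had one on the array. Bax, which forms pores in the outer mitochondrial membrane, and Cycs, the cytochrome c that leaves through them, lay only on probe sets annotated to several genes and were given no value. A filter on low mean intensity left 24 members to be tested, and the other 11 are described from an unfiltered fit.

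Total RNA from the cerebral cortex of Rattus norvegicus was measured on 40 arrays, 20 from hypoxic preconditioning (sublethal low oxygen, known to raise the brain's tolerance of a later insult) and 20 from a sham procedure in normal oxygen. In each group the samples carry the numbers 1 to 20 and come in 4 runs of 5, numbers 1 to 5, 6 to 10, 11 to 15 and 16 to 20. What a run stands for, the oxygen level and duration, and the strain, age and sex of the rats go unstated in the labels used here, and no condition was assigned to the runs. Whether each sample was a separate animal is not in the labels, and the p-values then reflect only sample-to-sample spread, possibly technical. All values are log2 intensities, with intensities below 16 set to 16, and a difference of 1 is a 2-fold difference. The array medians lay between 5.53 and 5.82, with preconditioned arrays 6 and 5 the lowest at 5.53 and 5.59. Of the marker genes of cortical neurons, 10 of 11 passed the filter.

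Apoptosis is carried out by caspases, proteases that wait in the cell as inactive precursors. In the mitochondrial pathway the guardians Bcl2, Bcl2l1, Bcl2l2 and Mcl1 hold back the pore formers Bax and Bak1. BH3-only proteins such as Bid, Bad, Bcl2l11 and Bbc3 release that brake, after which cytochrome c and Apaf1 assemble the apoptosome that activates Casp9. Death receptors such as Fas and Tnfrsf1a start a parallel route through Fadd, Ripk1 and Casp8, which Cflar restrains, while Xiap, Birc2 and Birc3 (inhibitor of apoptosis proteins) check caspases or the signals that lead to them. Hypoxia can engage several of these steps in neurons, and the comparison of preconditioned with sham cortex asked which of their transcripts it altered.

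The stretches before the start sites of Casp1 and Apaf1 are shown because Casp1 had the largest preconditioned minus sham difference among the tested members and Apaf1 the smallest adjusted p between sham runs. Casp1 encodes the inflammatory caspase that matures interleukin-1 beta and triggers pyroptosis, a lytic form of cell death. Apaf1 encodes the scaffold of the apoptosome. Both sequences are the 250 bases before the annotated start in RefSeq, build GRCr8, read on the strand of the gene: Casp1 at chr8:10872580-10872829 on the plus strand and Apaf1 at chr7:27466773-27467022 on the minus strand. Capitals mark ACGTG, 1 form of the core of the hypoxia response element, searched on both strands, where it reads CACGT on the reverse. The form GCGTG was neither searched nor marked.
Casp1: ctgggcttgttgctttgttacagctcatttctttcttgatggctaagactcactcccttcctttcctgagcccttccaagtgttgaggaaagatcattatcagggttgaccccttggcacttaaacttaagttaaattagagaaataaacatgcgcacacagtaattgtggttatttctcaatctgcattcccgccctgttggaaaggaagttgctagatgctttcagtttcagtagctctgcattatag
Apaf1: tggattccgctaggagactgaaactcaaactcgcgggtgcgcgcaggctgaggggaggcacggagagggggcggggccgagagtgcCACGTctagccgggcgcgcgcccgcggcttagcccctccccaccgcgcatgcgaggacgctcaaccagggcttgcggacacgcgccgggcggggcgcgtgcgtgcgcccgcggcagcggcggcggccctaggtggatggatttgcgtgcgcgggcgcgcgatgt
Apaf1 held ACGTG 1 time, at position -164 from the start, and Casp1 did not hold it. Of the 31 members with a promoter in the table, 8 held ACGTG (25.8%), against 16.6% of 33469 promoters of the same length. These were Apaf1, Bcl2, Bcl2l1, Casp9, Dapk1, Endog, Fadd and Pdcd4. The 33469 promoters were not limited to genes on the array. Base composition, 74% G or C in the Apaf1 stretch and 42% in that of Casp1, was not taken into account in these shares. A match describes these letters and does not show a binding site.

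Between preconditioned and sham cortex, none of the 24 tested members passed over all arrays or in any run in the main fit. That fit did not pair same-numbered samples. With same-numbered samples paired, Casp1 passed in numbers 1 to 5 (limma adjusted p = 0.0267). Casp1 also passed there unpaired, without limma's mean trend or with probe sets averaged (limma adjusted p = 0.0453 and 0.0463). Over all 40 arrays limma called 0 of 24 members at a Benjamini-Hochberg adjusted p under 0.05, where it called 0.891% of the 18625 probe sets tested, and 2 members had an unadjusted p under 0.05 (14.9% of all probe sets). Of the members, 12 were higher and 12 lower after preconditioning, from -0.28 for Casp1 to 0.13 for Ripk1, a kinase of death receptor signalling. The 95% interval of the difference lay within 0.5 of 0 for 23 of the 24, the exception being Casp1, whose interval ran from -0.56 to 0.01. All 24 intervals lay within 1 of 0, that is, within a 2-fold difference.

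**Figure D1:**
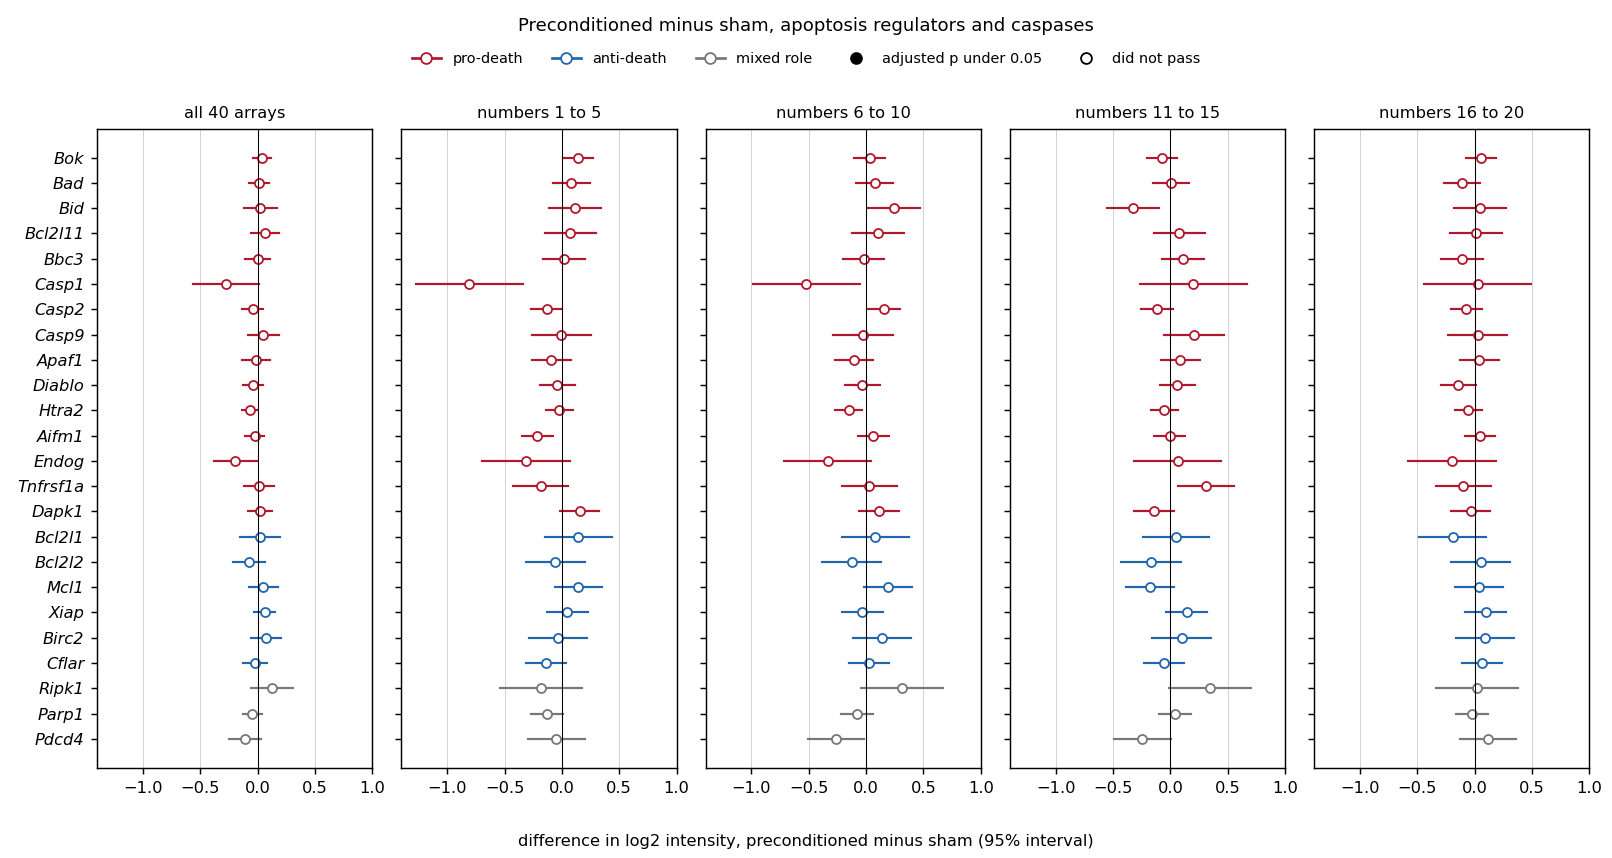
Difference in log2 intensity, preconditioned minus sham, of the 24 tested members over all 40 arrays and in each run of 5 numbers per group, with 95% intervals from limma; red marks members that promote death, blue those that restrain it and grey those of mixed role. All points are open because none reached an adjusted p under 0.05, and Casp1 in numbers 1 to 5 lies farthest from 0 at -0.81.

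Endog and Htra2 had the smallest p over all arrays, and neither passed. Endog, a nuclease that mitochondria release and that then cuts nuclear DNA, had a lowest, median and highest level of 4.82, 5.62 and 6.00 on preconditioned arrays, against 4.84, 5.82 and 6.18 on sham arrays. Its difference was -0.20 ± 0.09 (SE, limma adjusted p = 0.315), and the groups overlapped over nearly their whole range. By run it was -0.31, -0.34, 0.06 and -0.20 from numbers 1 to 5 to numbers 16 to 20. Htra2, a mitochondrial protease that binds inhibitor of apoptosis proteins, ranged from 8.18 to 8.54 around a median of 8.35 on preconditioned arrays and from 8.26 to 8.58 around 8.46 on sham arrays. Its difference was -0.07 ± 0.03 (SE, limma adjusted p = 0.315), again with overlapping groups, and -0.03 with median centring of each array (limma adjusted p = 0.743). With 32 added in place of the floor, the difference of Endog was -0.12 (limma adjusted p = 0.289).

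Within the runs limma called 0 of 24 members in each. From the first run to the last, the shares of all probe sets called were 2.39%, 2.22%, 0.0698% and 0%, which come to less than 1 of 24 members in each run. At an unadjusted p under 0.05 stood 3, 5, 2 and 0 members in the 4 runs, against 16.6%, 16.8%, 9.85% and 5.11% of all probe sets. Intervals were wider than over all arrays, with a median width to each side of 0.19, and they lay within 0.5 of 0 for 21, 20, 20 and 23 members. Only the interval of Casp1 in numbers 1 to 5 reached past 1, from -1.28 to -0.34.

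Casp1 had the largest differences of any tested member in the first 2 runs, -0.81 and -0.52, and passed in neither. In numbers 1 to 5 it measured 4.36, 4.00, 4.78, 4.41 and 4.00 on preconditioned arrays, against 4.67, 4.97, 5.42, 5.62 and 4.90 on sham arrays, where 4.00 is the floor. The difference was -0.81 ± 0.23 (SE, 1.75-fold lower, limma adjusted p = 0.05003), and preconditioned array 3 alone reached into the sham range. In numbers 6 to 10 the levels were 4.00, 4.38, 4.87, 4.83 and 4.98 on preconditioned arrays, against 5.64, 4.00, 5.43, 5.45 and 5.16 on sham arrays. All 5 preconditioned arrays lay below 4 of the 5 sham arrays, and sham array 7 was at the floor, for a difference of -0.52 ± 0.23 (SE, limma adjusted p = 0.237). Without sham array 7 limma called Casp1 in numbers 6 to 10, and without preconditioned array 3 or sham array 1 it called Casp1 in numbers 1 to 5 (limma adjusted p = 0.0332 and 0.0349). Of 10 alternatives for numbers 1 to 5, Casp1 passed in 3: without limma's mean trend, with probe sets averaged or with a replicate block (limma adjusted p = 0.0453, 0.0463 and 0.0267). In the other 7 Casp1 did not pass. With 32 added to each intensity in place of the floor, the difference was -0.37 (limma adjusted p = 0.0779). Without preconditioned arrays 5 and 6 it was -0.73 (limma adjusted p = 0.113). The adjusted p in limma was 0.117 with the 10 arrays of the run fitted alone and 0.0770 without the filter. In the later runs Casp1 averaged 5.41 ± 0.20 on preconditioned arrays and 5.21 ± 0.14 on sham arrays in numbers 11 to 15, and 5.19 ± 0.39 on preconditioned arrays and 5.17 ± 0.22 on sham arrays in numbers 16 to 20 (SD, n = 5 each). Those differences were 0.20 and 0.03, with groups that overlapped.

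The run difference of Casp1 did not pass as an interaction, and its level near the floor limits how far its fold can be read. The moderated F-test of the interaction gave an adjusted p of 0.247 in limma. With 4 of the 40 arrays at the floor (preconditioned 2, 5 and 6 and sham 7), values there have no order. The difference in numbers 1 to 5, where only preconditioned arrays stood at the floor, may be understated. In numbers 6 to 10 both groups had an array at the floor, and the difference may be understated or overstated. Casp1 is expressed by microglia and macrophages, whose list had 8 of 12 markers tested. In numbers 1 to 5 none of these was called (2.39% of all probe sets) and their median difference was 0.08. The log2 of their summed intensity spanned 9.03 to 9.16 on preconditioned arrays and 8.83 to 9.22 on sham arrays. In numbers 6 to 10 Mrc1, a receptor of macrophages, was higher by 0.74 and the list's median difference was 0.04, with sums from 9.24 to 9.91 on preconditioned arrays and 9.16 to 9.61 on sham arrays. The part of cell composition in the Casp1 values was not tested, and in bulk tissue fewer cells of a type and less RNA per cell cannot be told apart.

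**Figure D2:**
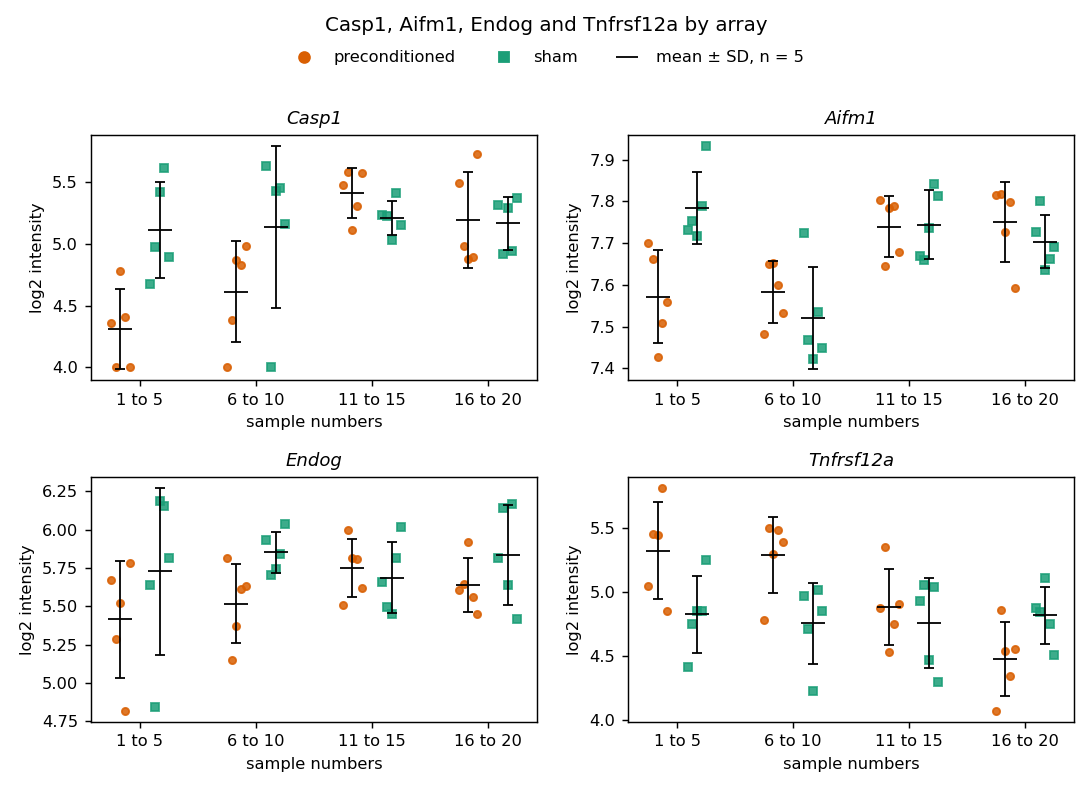
Log2 intensity of Casp1, Aifm1, Endog and Tnfrsf12a on each array by run of sample numbers, preconditioned as circles and sham as squares, with mean ± SD of 5 arrays. Casp1 averaged 4.31 on preconditioned and 5.12 on sham arrays in numbers 1 to 5, and the 2 groups lay together in numbers 11 to 15 and 16 to 20.

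Aifm1, the apoptosis-inducing factor, a mitochondrial flavoprotein that moves to the nucleus in caspase-independent death, was the other leading member of numbers 1 to 5. It measured 7.70, 7.66, 7.43, 7.51 and 7.56 on preconditioned arrays, against 7.73, 7.75, 7.72, 7.79 and 7.93 on sham arrays. All preconditioned arrays lay below all sham arrays, and the difference of -0.21 ± 0.07 (SE) missed the threshold (limma adjusted p = 0.0722). Without preconditioned array 1 Aifm1 passed (limma adjusted p = 0.0493), and in the other 9 of 10 fits with an array left out it did not (up to 0.19). With median centring the difference was -0.15 (limma adjusted p = 0.280). With the 10 arrays of the run fitted alone the adjusted p in limma was 0.219. Dapk1, a kinase that promotes death in neurons, lay above all sham arrays in the same run, though its lowest preconditioned and highest sham array round to the same value, at 8.75, 8.81, 8.80, 8.73 and 8.73 on preconditioned arrays against 8.72, 8.73, 8.57, 8.69 and 8.35 on sham arrays. Its difference of 0.16 ± 0.09 (SE) did not pass (limma adjusted p = 0.358). Aifm1 and Dapk1 were the 2 of 24 tested members without overlap in numbers 1 to 5, beside 4.28% of all probe sets, and the later runs had 0 such members, beside 3.66%, 2.21% and 1.14% of all probe sets.

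The leading members of the other runs differed from one run to the next. In numbers 6 to 10 Htra2 was -0.15 ± 0.06, at 8.30, 8.26, 8.32, 8.25 and 8.26 on preconditioned arrays against 8.26, 8.49, 8.55, 8.40 and 8.46 on sham arrays (SE, limma adjusted p = 0.170). Sham array 6 lay among the preconditioned arrays and the other 4 sham arrays above them, and with median centring the difference was -0.08 (limma adjusted p = 0.602). Casp2, a caspase tied to DNA damage and the cell cycle, was 0.16 ± 0.07 in that run, at 8.36, 8.48, 8.70, 8.49 and 8.44 on preconditioned arrays against 8.23, 8.31, 8.29, 8.45 and 8.42 on sham arrays (SE, limma adjusted p = 0.229), with overlap. In numbers 1 to 5 a further probe set of Casp2 was lower by 0.36 and passed (limma adjusted p = 0.0480), while the one that stands for the gene was at -0.13 and did not.

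In numbers 11 to 15 Bid, a BH3-only protein that caspase-8 cleaves, was -0.32 ± 0.11 (SE, limma adjusted p = 0.324), at 7.59, 7.31, 7.31, 7.50 and 7.49 on preconditioned arrays against 7.74, 7.53, 7.75, 8.04 and 7.76 on sham arrays. Only preconditioned array 11 reached above a sham array, and with the probe sets of Bid averaged the difference was -0.20 (limma adjusted p = 0.554). Tnfrsf1a, the main receptor of tumour necrosis factor, was 0.31 ± 0.12 in the same run, at 7.05, 7.18, 6.73, 6.87 and 7.11 on preconditioned arrays against 6.63, 6.72, 6.59, 6.64 and 6.79 on sham arrays (SE, limma adjusted p = 0.371). Preconditioned array 13 lay in the sham range and the other 4 above it. In numbers 16 to 20 the smallest p belonged to Diablo, a mitochondrial antagonist of inhibitor of apoptosis proteins, and to Bad, a BH3-only protein kept inactive by phosphorylation. Diablo measured 7.82, 7.84, 7.77, 7.72 and 7.70 on preconditioned arrays against 7.90, 7.75, 8.02, 7.89 and 8.00 on sham arrays, a difference of -0.14, and Bad 8.89, 8.92, 8.92, 8.85 and 9.11 on preconditioned arrays against 9.08, 9.09, 9.06, 8.96 and 9.05 on sham arrays, a difference of -0.11 (limma adjusted p = 0.927 for both). The groups overlapped for both genes.

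The test of whether the preconditioning effect differed between runs called 0 of 24 members, against 0.762% of all probe sets, with 5 members at an unadjusted p under 0.05 (12.9% of all). Bid had the smallest adjusted p in limma, 0.200, with run differences that spanned 0.57 on the log2 scale, from 0.25 in numbers 6 to 10 to -0.32 in numbers 11 to 15. Casp1 followed at 0.247 with a span of 1.01. The run effects share no arrays with each other, but each shares its arrays with the value over all 40.

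By role, the median differences of members that promote death and of members that restrain it both lay close to 0. Over all arrays the median difference was -0.001 for the 15 tested promoters and 0.03 for the 6 tested restrainers, beside -0.02 for all probe sets tested. After median centring of each array these were 0.04, 0.07 and 0.02, so the sign of the promoters' median depended on the scaling. By run the promoters' medians were -0.02, 0.03, 0.06 and -0.03 and the restrainers' 0.01, 0.05, -0.002 and 0.06, while those of all probe sets were -0.03, -0.02, 0.004 and -0.004. With median centring the promoters' median in numbers 1 to 5 became 0.05, and without preconditioned arrays 5 and 6 the restrainers' median in numbers 6 to 10 became -0.01. The 3 tested members of mixed role, Ripk1, Pdcd4 and the DNA repair enzyme Parp1, had medians of -0.05 over all arrays and -0.13, -0.08, 0.04 and 0.02 by run.

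**Figure D3:**
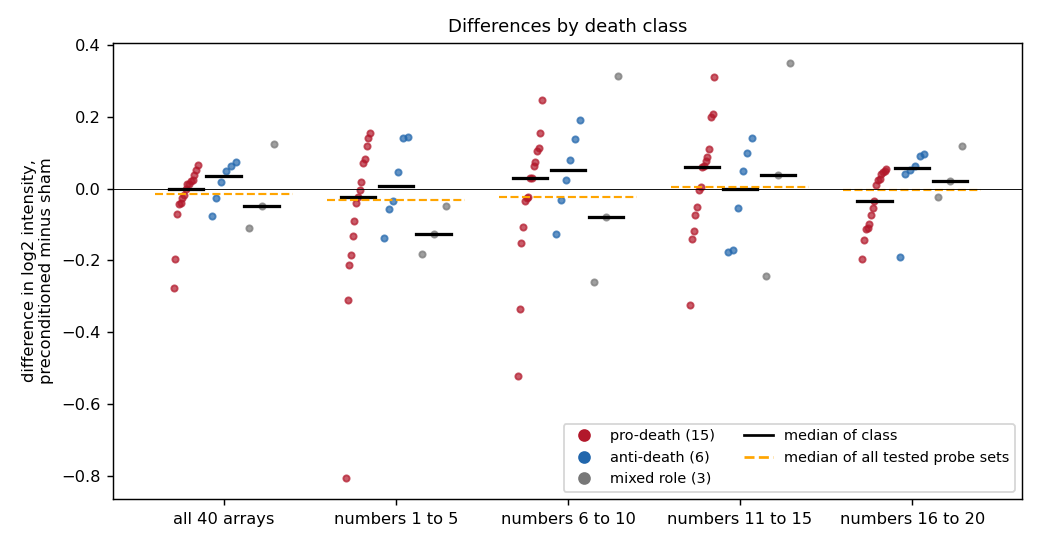
Difference in log2 intensity, preconditioned minus sham, of each tested member by class (points), with the class median (black bar) and the median of all tested probe sets (dashed line), over all 40 arrays and by run. The medians of the 15 promoters and of the 6 restrainers lay between -0.03 and 0.06 in every comparison.

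Among the guardians, Mcl1, a short-lived Bcl2 relative that neurons need to survive, was at 0.05 over all arrays and 0.19 in numbers 6 to 10. Bcl2l1, known as Bcl-xL, was at 0.02 over all arrays and Bcl2l2 at -0.075. Of the caspase inhibitors, Xiap was at 0.06, Birc2 at 0.07 and the receptor inhibitor Cflar at -0.03. The pore former Bok was at 0.04, and the BH3-only members were at 0.01 for Bad, 0.02 for Bid, 0.07 for Bcl2l11 and -0.001 for Bbc3. Casp9, the caspase of the apoptosome, was at 0.05 and Apaf1 at -0.02. None of these passed in limma, and each had a 95% interval within 0.5 of 0.

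The 11 members under the filter were close to the floor, and limma called 0 of the 11 between preconditioned and sham arrays in the unfiltered fit, beside 0.287% of all 31042 probe sets over all arrays and 1.25%, 1.28%, 0.0451% and 0% by run. At an unadjusted p under 0.05 stood 0 of the 11 over all arrays and 1, 1, 1 and 2 by run. The share of all probe sets at that unadjusted p was not counted in the unfiltered fit, so nothing is read from these counts. Bik lay at the floor on 38 of 40 arrays, Fas on 37, Bmf on 35, Bcl2 on 20 and Birc3 on 15, and values there have no order. Bak1, Casp6, Casp8, Casp12 and Fadd averaged between 4.46 and 4.75. Tnfrsf12a, the Fn14 receptor of the cytokine TWEAK, which is induced by injury, had the smallest p among them in the first 2 runs. In numbers 1 to 5 it measured 5.05, 5.46, 5.45, 5.81 and 4.85 on preconditioned arrays, against 4.41, 4.76, 4.86, 4.86 and 5.26 on sham arrays. In numbers 6 to 10 it measured 4.78, 5.50, 5.30, 5.48 and 5.39 on preconditioned arrays, against 4.97, 4.71, 4.23, 5.02 and 4.85 on sham arrays. The groups overlapped in both runs, with differences of 0.50 ± 0.19 and 0.54 ± 0.19 (SE, limma adjusted p = 0.245 and 0.185), and in numbers 16 to 20 preconditioned arrays averaged 4.48 and sham arrays 4.82. Birc3 in numbers 16 to 20 had 4 of 5 preconditioned arrays at the floor and 1 at 4.68, against 4.93, 4.59, 4.66, 4.93 and 5.08 on sham arrays, a difference of -0.70 ± 0.23 (SE, limma adjusted p = 0.856).

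Outside the 37, a list of 69 other genes of death pathways held 43 that were tested. Over all arrays limma called 2 of them higher and 0 lower after preconditioning, beside 0.891% of all probe sets. Bnip3, a mitochondrial protein that is a classical target of the hypoxia-inducible factor, was higher by 0.23 ± 0.05 (SE, limma adjusted p = 0.0106). Its relative Bnip3l was higher by 0.14 ± 0.03 (SE, limma adjusted p = 0.0172). In numbers 1 to 5 limma called 1 of the 43 (2.39% of all probe sets), again Bnip3, at 0.32. In numbers 6 to 10 it also called 1 (2.22% of all): Nfkbia, the inhibitor of the survival factor NF-kappa-B, was higher by 0.49 (limma adjusted p = 0.0229). The runs after that called 0 of the 43 in limma, beside 0.0698% and 0% of all probe sets.

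Across the runs, some members differed within the sham group itself. Limma's F-test over the 4 sham runs called 4 of 24 members, or about the share of all probe sets called (13.7%): Apaf1, Aifm1, Bcl2l1 and Pdcd4. Between sham numbers 16 to 20 and sham numbers 1 to 5 it called 5, of which 2 were higher (Bad and Bcl2l11) and 3 lower (Apaf1, Casp2 and Parp1), beside 14.8% of all probe sets called, 6.94% higher and 7.88% lower. Between neighbouring runs it called Aifm1 alone, in sham 6 to 10 against sham 1 to 5 (1.26% of all probe sets). In sham 11 to 15 against 6 to 10 limma called 0 members (0.29% of all), with 1 at an unadjusted p under 0.05 (8.17% of all), and in sham 16 to 20 against 11 to 15 also 0 (0.65% of all), with 6 at an unadjusted p under 0.05 (16.2% of all).

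Apaf1 had the smallest adjusted p of any tested member across the sham runs. On sham arrays it measured 7.89, 8.21, 7.96, 8.18 and 8.06 in numbers 1 to 5, then 7.85, 7.99, 7.99, 8.03 and 7.69 in numbers 6 to 10. In numbers 11 to 15 it measured 7.88, 7.79, 7.56, 7.76 and 7.95, and in numbers 16 to 20 it measured 7.80, 7.57, 7.55, 7.49 and 7.51. All sham arrays of numbers 16 to 20 lay below all sham arrays of numbers 1 to 5. That difference was -0.48 ± 0.08 (SE, 1.39-fold lower, limma adjusted p = 0.000234), and the F-test over runs gave an adjusted p of 0.00105 in limma. Another probe set of Apaf1 was also lower, by 0.42 (limma adjusted p = 0.00663). On preconditioned arrays, a comparison added after seeing the data, Apaf1 measured 7.79, 7.72, 7.54, 7.60 and 7.48 in numbers 16 to 20 against 7.96, 7.96, 7.94, 7.90 and 8.09 in numbers 1 to 5, without overlap. The difference there was -0.34 ± 0.08 (SE, limma adjusted p = 0.00336). Its preconditioned minus sham difference stayed between -0.11 and 0.09 in the 4 runs and passed in none.

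**Figure D4:**
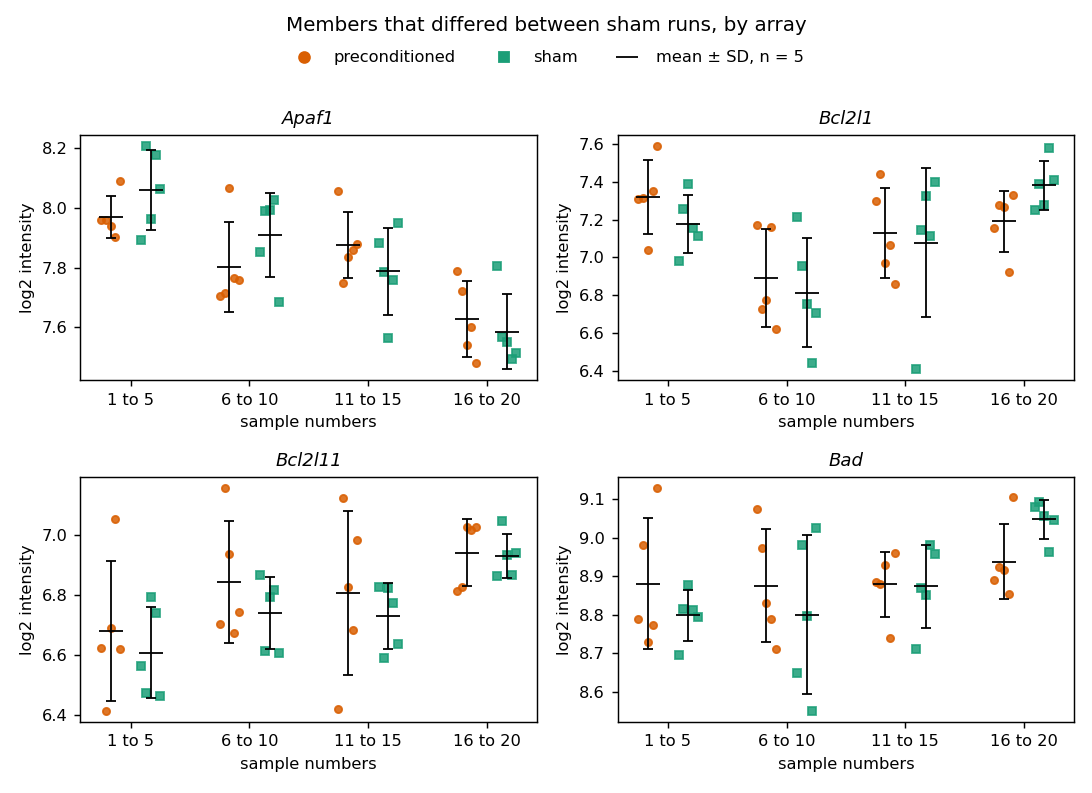
Log2 intensity of Apaf1, Bcl2l1, Bcl2l11 and Bad on each array by run of sample numbers, preconditioned as circles and sham as squares, with mean ± SD of 5 arrays. Apaf1 averaged 7.63 on preconditioned and 7.58 on sham arrays in numbers 16 to 20, below 7.97 on preconditioned and 8.06 on sham arrays in numbers 1 to 5.

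Bcl2l1 and Aifm1 differed between sham runs with their lowest mean in numbers 6 to 10. Bcl2l1 averaged 7.18 ± 0.15, 6.81 ± 0.29, 7.08 ± 0.39 and 7.38 ± 0.13 on sham arrays from numbers 1 to 5 to numbers 16 to 20 (SD, n = 5 each), and the F-test gave an adjusted p of 0.0317 in limma. That call ended without any 1 of sham arrays 8, 9, 10, 17, 19 or 20 (limma adjusted p from 0.0608 to 0.105), without the filter (0.0730) and with probe sets averaged (0.0745). Aifm1 measured 7.72, 7.47, 7.42, 7.54 and 7.45 on sham arrays 6 to 10, against 7.73, 7.75, 7.72, 7.79 and 7.93 on sham arrays 1 to 5. Sham array 6 lay in the range of the earlier run and the other 4 below it, for a difference of -0.26 ± 0.07 (SE, limma adjusted p = 0.0350). That call ended without any 1 of sham arrays 1, 2, 4, 5, 7, 8 or 10 (limma adjusted p from 0.0563 to 0.103). The F-test over sham runs gave Aifm1 an adjusted p of 0.0192 in limma, which did not pass without sham array 7, 8 or 10 (limma adjusted p from 0.0519 to 0.0679). The sham arrays of numbers 1 to 5 that place Aifm1 high here are those used in its preconditioned minus sham difference of that run.

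Bad and Bcl2l11, the 2 members called higher in sham numbers 16 to 20 against 1 to 5 (6.94% of all probe sets), are both BH3-only. The other tested BH3-only members, Bid and Bbc3, were not called and averaged lower. Bid averaged 7.53 on sham arrays 16 to 20 against 7.80 on sham arrays 1 to 5, and Bbc3 7.73 against 7.84. Bad measured 9.08, 9.09, 9.06, 8.96 and 9.05 in numbers 16 to 20, against 8.69, 8.81, 8.88, 8.81 and 8.79 in numbers 1 to 5, without overlap. It rose by 0.25 ± 0.08 (SE, limma adjusted p = 0.0279), a call that ended without sham array 1, 17 or 20 (limma adjusted p from 0.0518 to 0.0827) and with median centring (0.0595). On preconditioned arrays the difference of Bad in the same comparison was 0.06 (limma adjusted p = 0.665). Bcl2l11, known as Bim, measured 6.86, 7.04, 6.93, 6.87 and 6.94 in numbers 16 to 20, against 6.56, 6.48, 6.79, 6.74 and 6.47 in numbers 1 to 5, also without overlap. It rose by 0.32 ± 0.11 (SE, limma adjusted p = 0.0435), and the call ended without any 1 of sham arrays 1, 2, 5, 17, 18, 19 or 20 (limma adjusted p from 0.0591 to 0.114) and without the filter (0.0634). With its probe sets averaged the difference was 0.19 (limma adjusted p = 0.366), and on preconditioned arrays it was 0.26 (limma adjusted p = 0.0980). Of the 24 members, 2 lay wholly above in this comparison and 1 wholly below, beside 4.87% and 5.63% of all probe sets.

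Casp2 and Parp1 fell by less and overlapped. Casp2 measured 8.32, 8.27, 8.16, 8.26 and 8.17 on sham arrays 16 to 20, against 8.59, 8.43, 8.36, 8.30 and 8.47 on sham arrays 1 to 5, a difference of -0.20 ± 0.07 (SE, limma adjusted p = 0.0443). Parp1, which builds poly(ADP-ribose) at DNA breaks, measured 8.72, 9.01, 8.71, 8.98 and 9.01 on sham arrays 16 to 20, against 9.04, 8.98, 9.14, 9.11 and 9.14 on sham arrays 1 to 5, a difference of -0.20 ± 0.07 (SE, limma adjusted p = 0.0474). Each call ended with several single arrays left out: for Casp2 any 1 of sham arrays 1, 2, 5, 17, 18, 19 or 20 (limma adjusted p from 0.0624 to 0.156), and for Parp1 any 1 of 1, 3, 4, 5, 16 or 18 (0.0685 to 0.157). Both calls also ended with quantile normalization, with median centring, without the filter and without the mean trend (limma adjusted p from 0.0501 to 0.0710), and that of Casp2 with probe sets averaged (0.112). On preconditioned arrays Casp2 was at -0.14 and Parp1 at -0.09 (limma adjusted p = 0.167 and 0.376).

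Pdcd4, an inhibitor of translation that apoptosis can induce, averaged 9.08 ± 0.14, 9.25 ± 0.10, 9.17 ± 0.13 and 8.80 ± 0.20 on sham arrays from numbers 1 to 5 to numbers 16 to 20 (SD, n = 5 each), with an F-test adjusted p of 0.0369 in limma. It was also the leading member of sham 16 to 20 against sham 11 to 15, at 8.93, 9.04, 8.74, 8.79 and 8.52 on sham arrays 16 to 20 against 9.24, 9.15, 9.29, 8.96 and 9.22 on sham arrays 11 to 15, with overlap and a difference of -0.37 ± 0.12 (SE, limma adjusted p = 0.117). Mcl1 followed at -0.26 (limma adjusted p = 0.197). With probe sets averaged these were -0.13 and -0.10, and on preconditioned arrays -0.01 and -0.04. The F-test call of Pdcd4 ended without any 1 of sham arrays 7, 8, 9, 18, 19 or 20 (limma adjusted p from 0.0538 to 0.153), without the filter (0.0923) and without the mean trend (0.0595). With the probe sets of Pdcd4 averaged the span of its sham run means was 0.17, against 0.45 for the probe set that stands for it (limma adjusted p = 0.217), and on preconditioned arrays the span was 0.11 (limma adjusted p = 0.841). In sham 11 to 15 against 6 to 10 the leading members were Aifm1 at 0.22 and Dapk1 at 0.16 (limma adjusted p = 0.204 and 0.651).

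On preconditioned arrays the F-test over runs called 9 of 24 members, beside 22.8% of all probe sets: Apaf1, Aifm1, Bid, Bbc3, Casp1, Casp2, Dapk1, Mcl1 and Cflar. In numbers 16 to 20 against 1 to 5 limma called 7 (17.6% of all, 9.58% higher and 8.03% lower), with Casp1 and Cflar higher by 0.88 and 0.35 and Mcl1, Apaf1, Bid, Dapk1 and Bok lower. Mcl1 measured 9.28, 9.08, 9.08, 8.82 and 9.08 on preconditioned arrays 16 to 20 against 9.55, 9.52, 9.41, 9.33 and 9.31 on preconditioned arrays 1 to 5, without overlap (-0.35 ± 0.10, SE, limma adjusted p = 0.0133). Cflar measured 7.21, 7.34, 7.25, 7.17 and 7.36 on preconditioned arrays 16 to 20 against 6.91, 6.93, 6.95, 7.03 and 6.75 on preconditioned arrays 1 to 5, also without overlap (0.35 ± 0.09, SE, limma adjusted p = 0.00381). In numbers 11 to 15 against 6 to 10 limma called 4 (8.91% of all, 5.13% higher and 3.78% lower): Casp1 and the BH3-only member Bbc3 higher by 0.80 and 0.28, and Bid and Casp2 lower by 0.44 and 0.32. It called 0 in the 6 to 10 against 1 to 5 comparison (3.98% of all), with 6 at an unadjusted p under 0.05 (19.2% of all), and 0 in 16 to 20 against 11 to 15 (0.274% of all), with 4 at an unadjusted p under 0.05 (13% of all). That more members passed here than on sham arrays was not tested as a difference beyond the interaction above, which called none.

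Of the 11 members under the filter, the unfiltered fit called Tnfrsf12a on preconditioned arrays, in the F-test over runs and in numbers 16 to 20 against 1 to 5 (11.7% and 9.3% of all probe sets). It measured 4.08, 4.86, 4.54, 4.35 and 4.56 on preconditioned arrays 16 to 20 against 5.05, 5.46, 5.45, 5.81 and 4.85 on preconditioned arrays 1 to 5, a difference of -0.85 ± 0.19 (SE, limma adjusted p = 0.00402). The groups overlapped only between arrays 17 and 5. On sham arrays it called Birc3 in numbers 16 to 20 against 1 to 5 (7.28% of all), at 4.93, 4.59, 4.66, 4.93 and 5.08 on sham arrays 16 to 20 against 4.00, 4.00, 4.04, 4.47 and 4.00 on sham arrays 1 to 5. These did not overlap, 3 of the earlier arrays stood at the floor, and the difference was 0.73 ± 0.23 (SE, limma adjusted p = 0.0492).

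**Figure D5:**
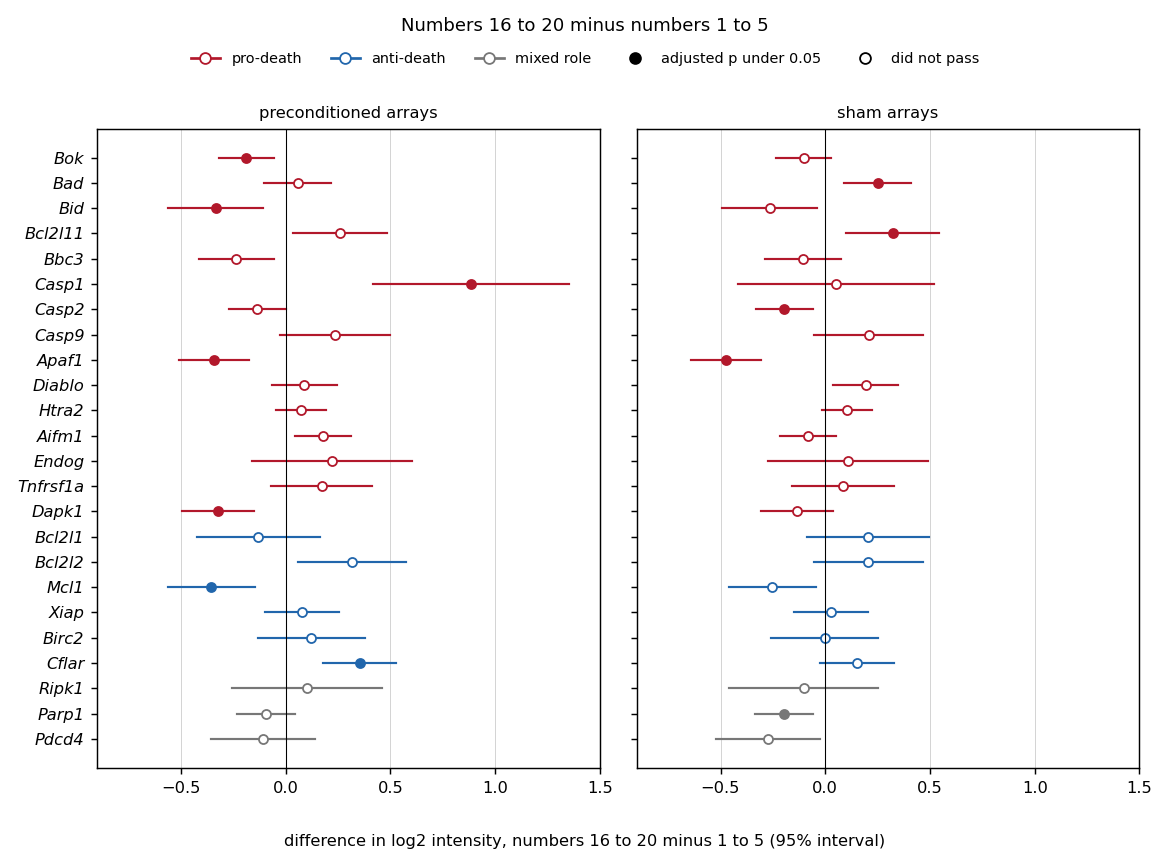
Difference in log2 intensity, numbers 16 to 20 minus numbers 1 to 5, of the 24 tested members on preconditioned arrays and on sham arrays, with 95% intervals; filled points reached an adjusted p under 0.05 in limma. Apaf1 is filled in both panels, at -0.34 on preconditioned and -0.48 on sham arrays.

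Some markers of cell types differed between the runs as well. In preconditioned 16 to 20 against 1 to 5, limma called 4 of 8 microglia and macrophage markers, 3 of 8 astrocyte markers and 2 of 10 neuron markers higher and none of these lower. It called 3 of 8 oligodendrocyte markers higher and 1 lower, 2 of 10 endothelial markers higher and 2 lower, and 2 of 3 blood markers and 2 of 8 markers of dividing cells lower. Of all probe sets, this comparison called 9.58% higher and 8.03% lower. The median difference of the microglia and macrophage list was 0.45, and the log2 of its summed intensity spanned 9.30 to 9.94 on preconditioned arrays 16 to 20 and 9.03 to 9.16 on preconditioned arrays 1 to 5, without overlap. In preconditioned 11 to 15 against 6 to 10 limma called 0 of 8 microglia and macrophage markers higher and 1 lower, beside 5.13% and 3.78% of all probe sets. Their median difference was 0.16, with sums from 9.17 to 9.68 on preconditioned arrays 11 to 15 and 9.24 to 9.91 on preconditioned arrays 6 to 10. The part of these in the run differences of Casp1, Cflar and the other members called on preconditioned arrays was not tested. In sham 16 to 20 against 1 to 5, limma called 6 of 10 tested neuron markers higher and 1 lower, 5 of 8 astrocyte markers higher, 5 of 8 microglia and macrophage markers higher and 4 of 8 oligodendrocyte markers higher, while 1 of 8 markers of dividing cells was lower. The median differences of these lists were 0.45, 0.45, 0.50, 0.34 and -0.20. Of all probe sets, 6.94% were called higher and 7.88% lower in that comparison. The log2 of the summed intensity of the oligodendrocyte list spanned 11.29 to 11.95 on sham arrays 16 to 20 and 11.12 to 11.25 on sham arrays 1 to 5, without overlap, and that of the dividing cell list 10.42 to 10.88 on sham arrays 16 to 20 and 10.80 to 10.99 on sham arrays 1 to 5. Endothelial and blood markers had medians of 0.09 and -0.22, with 0 called by limma. The part of these in the run differences of Apaf1, Bad, Bcl2l11, Casp2 and Parp1 was not tested. Of the 43 other death pathway genes, the same comparison called 1 higher and 3 lower, beside 6.94% and 7.88% of all probe sets. Tmbim6, a protein of the endoplasmic reticulum that restrains death driven by Bax, was higher by 0.24. Pak2, Api5 and Mapk8 were lower by 0.31, 0.20 and 0.19. Between neighbouring sham runs limma called Bag6, a chaperone partner, lower by 0.305 in 6 to 10 against 1 to 5 (1.26% of all). It called Faim2, an inhibitor of Fas signalling in neurons, higher by 0.80 in 11 to 15 against 6 to 10 (0.29% of all). On preconditioned arrays limma called 6 of the 43 higher and 5 lower in 16 to 20 against 1 to 5 (9.58% and 8.03% of all). In preconditioned 11 to 15 against 6 to 10 it called 4 higher and 2 lower (5.13% and 3.78% of all). In the other neighbouring preconditioned runs it called 1 lower in 6 to 10 against 1 to 5 (3.98% of all) and 0 in 16 to 20 against 11 to 15 (0.274% of all).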

How the data were processed

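The deposited table held linear intensity values, 1 per probe set and array, as the authors deposited them. What software and scaling made them is not given in the sources used here. After 2% trimming at each end, the mean of every array was 150. A floor of 16 was applied before taking log2 of the deposited values, and no normalization was added. Probe sets whose mean log2 over the 40 arrays reached the 40th percentile (intensity 31.9) were kept, 18625 of 31042 after 57 control probe sets were left out, and only names from probe sets annotated to 1 gene were used. Groups came from the labels. Preconditioned minus sham was fitted with limma 3.58.1 in R 4.3.3 (lmFit, eBayes with a mean trend) over all 40 arrays and, for the runs, in 1 fit of 8 group means; all tests were two-sided, adjusted by Benjamini-Hochberg over all kept probe sets at 0.05. The scripts were tested on simulated data. Members below the filter were read from a fit without it.

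Members and lists were chosen with earlier results of these data known. The members described in full were those called in a comparison or, where none was, the 2 with the smallest p; further genes were given by count and range. From the list of other death pathway genes up to 4 called genes were named per comparison. The run differences on preconditioned arrays and the Tnfrsf12a, Birc3 and Dapk1 values were singled out after seeing the data. Promoter motifs were counted with Python 3.11.15 in RefSeq sequences of GRCr8. The alternatives tried were median centring, quantile normalization, a pseudocount of 32 or a floor of 1, filters at the 60th percentile or none, no mean trend, averaged probe sets, arrays left out, the number run as a covariate, a replicate block, and fits of fewer arrays. The number of arrays limits the precision.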

Additional observations from a re-analysis of the deposited data

Results flagged for a closer look

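Among the 16 genes followed by name, 128 groups of 5 arrays were examined for an array that stood far from the other 4, by the gap to its nearest neighbour as a share of the group's range. Chance flags about 1 in 20 groups, which is 6.4 of 128, and 8 were found. On preconditioned arrays these were Casp2 on array 17 at 7.97 (nearest other array 8.20), Bid on array 16 at 8.02 (nearest 7.53), Bad on array 20 at 9.11 (nearest 8.92), Apaf1 on array 8 at 8.07 (nearest 7.77) and Pdcd4 on array 20 at 8.68 (nearest 8.94). On sham arrays these were Htra2 on array 2 at 8.46 (nearest 8.34), Bid on array 2 at 8.14 (nearest 7.76) and Apaf1 on array 16 at 7.80 (nearest 7.57). Sham array 2 and preconditioned array 20 each held 2 of them.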

How the results depend on the processing

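Over all arrays, in numbers 6 to 10, 11 to 15 and 16 to 20 and for the interaction, limma called 0 tested members under every alternative other than leaving out single arrays. Other counts moved as follows, and the cause was not tested. In numbers 1 to 5 the count of 0 became 1 without the mean trend and 1 with the replicate block (Casp1 in both, adjusted p = 0.0453 and 0.0267), and 2 with probe sets averaged (Casp1 and Casp2). The replicate block changed no other count of preconditioned against sham, and could not be fitted to run differences because each number lies in 1 run. Deviations of same-numbered samples correlated above 0.1 in 15 of 20 pairs and below 0 in 0 (r from 0.03 to 0.39). Among the 5 candidates of the run, 19 of 20 numbers correlated best with their own. Samples were thus paired by number in the data, through what is not known. The fit without the block was kept because the labels name nothing that the numbers share and not every pair was above 0.1. Its p-values leave this pairing out. The sham F-test's 4 calls became 2 without the filter and 9 on preconditioned arrays. The 5 calls in sham 16 to 20 against 1 to 5 became 2 with median centring, 2 without the filter, 3 without the mean trend and 3 with probe sets averaged. In sham 16 to 20 against 11 to 15 the count of 0 became 1 (Pdcd4) with sham arrays fitted alone and 1 without preconditioned arrays 5 and 6. On preconditioned arrays the count was 0 in 6 to 10 against 1 to 5, where sham arrays gave 1, and 4 in 11 to 15 against 6 to 10, where sham arrays gave 0, and the signs of Aifm1 (0.012) in 6 to 10 against 1 to 5 and Dapk1 (-0.0942) in 11 to 15 against 6 to 10 were opposite to those on sham arrays. With each array of a comparison left out in turn, counts ranged from 0 to 1 in numbers 1 to 5 and 6 to 10, from 0 to 1 in sham 6 to 10 against 1 to 5, from 1 to 4 in the sham F-test and from 1 to 5 in sham 16 to 20 against 1 to 5. Apaf1 passed under each of its alternatives in that comparison, preconditioned arrays included, with adjusted p from 8.95e-05 to 0.00336, and with each array left out (7.57e-05 to 0.00177). For preconditioned arrays across runs, neither leave-one-out fits nor the other alternatives were run. How far those calls depend on the processing, or on preconditioned arrays 5 and 6, was therefore not tested. Signal near the background limits Casp1, Endog, Ripk1 and the 11 members under the filter.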
